A study of Mus musculus with 10 samples.

Results

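Epiphycan cells of the cochlea were 918 of the 7272 cells kept from 4 libraries of the old mouse cochlea, all of them with at least 1 unique molecular identifier (UMI) of Epyc, the gene of the proteoglycan epiphycan. They were chosen by their counts in these libraries. A cell had to hold Epyc and at least 2 of the 5 genes Prss36, Tdrd12, Qpct, Nat8l and Padi1, with fewer than 3 of 6 hair cell (HC) genes and fewer than 3 of 6 genes (Pcdh17, Vldlr, Tnnt2, Aqp4, Agr3, Phyhipl) of another group of supporting cells. What these 18 genes show in the cells is therefore a description of the choice. The study prepared droplet libraries (3′ counts, 1 UMI for each captured transcript whatever its length) from dissected cochleae and vestibular organs of wild-type CBA/J mice that were 22 months old, with 7 to 8 mice pooled in a library. The labels, which were followed, give 5 replicates of each organ, while the design text of the series gives 6 of the cochlea and 4 of the vestibule with 7 mice each. The labels give no transgene and no treatment other than ageing, and no other age was analysed here. Of the 5 libraries labelled as replicates of each organ, replicate 2 repeated replicate 1. All 1313 barcodes of cochlear replicate 2 were also in replicate 1, and the chi-square per gene between their epiphycan cells was 0.0918, against 7.06 between replicates 1 and 4. The pair differed by less than the sampling noise and was counted as 1 sample, so n was 4 for each organ.

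Epiphycan belongs to the small leucine-rich proteoglycans, secreted proteins of the extracellular matrix that bind collagen fibrils and growth factors, and it is best known from cartilage. In the cochlea, non-sensory epithelial cells called supporting cells surround the HCs, couple to each other through gap junctions made of connexin 26 (Gjb2) and connexin 30 (Gjb6), clear potassium, and secrete the proteins of the tectorial membrane. Of the other genes of the rule, Prss36 encodes a serine protease, Tdrd12 a Tudor domain protein of the piRNA pathway, Qpct an enzyme that cyclizes an N-terminal glutamine, Nat8l the enzyme that makes N-acetylaspartate, and Padi1 an enzyme that turns arginine in proteins into citrulline.

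The mouse Epyc gene lies on chr10:97644068-97682454 (GRCm38, plus strand), where GENCODE M21 places no other gene on the same strand and Gm10754 at the far end on the other strand. The bases before its starts are shown because every epiphycan cell had to hold Epyc. RefSeq's table of promoters (GRCm38) holds an entry for 4 of the 6 genes of the rule, and it holds 2 starts for Epyc. The first window, chr10:97643818-97644017, lies -250 to -51 bases from the first start, before the first exon. The second, chr10:97646853-97647052, has the same distance from the second start and lies in an intron of the annotated gene. Capitals mark AGATAA, a motif bound by GATA factors, and ACAAAG, a motif bound by SOX factors, each searched on both strands after the sequences had been seen.
Epyc, first start: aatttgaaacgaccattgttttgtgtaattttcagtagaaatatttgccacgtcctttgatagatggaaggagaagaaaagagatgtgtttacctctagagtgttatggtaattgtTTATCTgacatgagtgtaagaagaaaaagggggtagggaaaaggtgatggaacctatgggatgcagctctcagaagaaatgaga
Epyc, second start: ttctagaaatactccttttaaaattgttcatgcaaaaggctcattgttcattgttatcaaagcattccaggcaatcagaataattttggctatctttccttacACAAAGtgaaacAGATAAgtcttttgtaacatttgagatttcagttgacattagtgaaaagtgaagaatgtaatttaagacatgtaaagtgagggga
The first window held TTATCT, the reverse complement of the GATA letters, once. The second held AGATAA and ACAAAG once each. Among the 32851 promoters of the table, 9.99% held the GATA letters in the 250 bases before the start, 16.5% the SOX letters and 2.04% both. These are matches of letters, and neither motif occurred in the 4 windows of Prss36, Tdrd12 and Padi1. Beside them, the level of Gata3 in epiphycan cells was 1876, 624, 706 and 853 CPM in replicates 1, 3, 4 and 5, that of Gata2 116, 83.6, 129 and 80.5 CPM, that of Sox9 519.9, 158, 195 and 157 CPM and that of Sox10 289, 228, 244 and 238 CPM, where CPM are UMIs summed over the epiphycan cells of a library and scaled to a total of 1000000. In Aqp4 Tnnt2 supporting cells and other epithelial cells (groups defined below), mean Gata3 was 1142 and 690 CPM and mean Gata2 164 and 17.0 CPM. Mean Sox9 was 288 and 292 CPM and mean Sox10 227 and 322 CPM in the same order, where Epyc stood at 4100 and 456 CPM. Any part of these factors in the level of Epyc was not tested.

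The 4 libraries held 91, 580, 128 and 119 epiphycan cells in the order of replicates 1, 3, 4 and 5. These were 15.9, 11.4, 18.4 and 12.7% of the kept cells of each library, with a mean of 14.6% ± 3.16 (SD, n = 4). Replicate 3 was the largest library and held 63.2% of all epiphycan cells. The median cell held 2045, 2595.5, 3336.5 and 2762 UMIs, and the summed depth of the cells was 259661, 2104207, 590805 and 496807 UMIs. The median mitochondrial share was 5.21, 7.96, 2.89 and 5.57%, highest in replicate 3 and lowest in replicate 4. No barcode of an epiphycan cell occurred in more than 1 of the 4 libraries.

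Among the epiphycan cells, Epyc was spread over a wide range. The median cell held 6, 12, 14.5 and 16 Epyc UMIs in replicates 1, 3, 4 and 5, and the highest cell held 184. In all, 65 cells (7.08%) held a single Epyc UMI and 539 (58.7%) held 10 or more, a share that was 28.6% in replicate 1 and between 60.9% and 68.1% in the other libraries. Of the 5 accompanying genes, 244 cells held 2, 260 held 3, 230 held 4 and 184 held all 5. Prss36 was found in 736 cells, Tdrd12 in 686, Nat8l in 628, Qpct in 539 and Padi1 in 519. Of the Epyc UMIs in the kept cells of a library, the epiphycan cells held 36.8% ± 5.04 (mean of the shares of the libraries, SD, n = 4), so most Epyc transcripts lay in cells outside the choice.

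**Figure D1:**
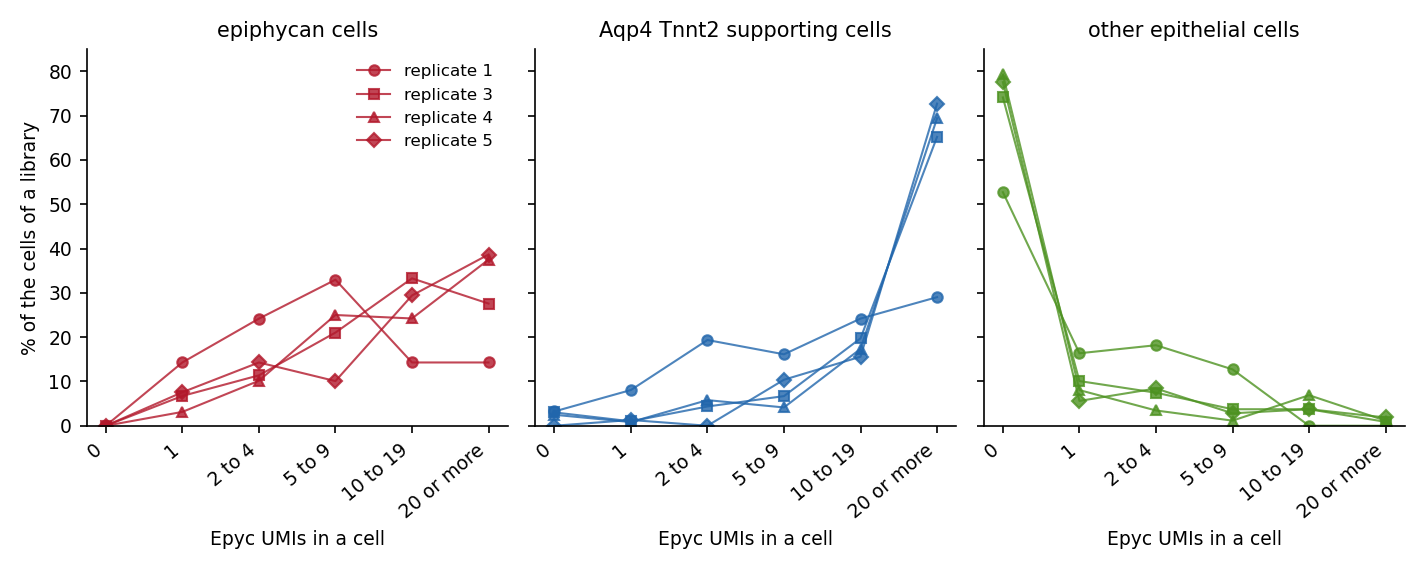
Percent of the cells of each library (vertical axis) by the number of Epyc UMIs in the cell (horizontal axis), for epiphycan cells (left), Aqp4 Tnnt2 supporting cells (middle) and other epithelial cells (right), one line for each of the 4 cochlear libraries. Replicate 1 lies apart in the left panel, where 28.6% of its cells held 10 or more Epyc UMIs, and most cells of the right panel held none.

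Of the limits on genes that a cell could not hold, the one on the Aqp4 Tnnt2 genes removed the most cells. Of 1481 cells with Epyc and at least 2 of the 5 genes, 524 (35.4%) were left out by this limit alone, 27 by the limit on HC genes alone and 12 by both. The 559 cells with 3 or more of the 6 Aqp4 Tnnt2 genes and fewer than 3 HC genes, called Aqp4 Tnnt2 supporting cells here, carried Epyc in 545 cases, and 524 of them (93.7%) met the positive part of the rule. They were also deeper, with a median of 3710, 7562, 9343 and 8121 UMIs, than the epiphycan cells. After each cell had been thinned to 1000 UMIs, 265 of the 559 (47.4%) passed the epiphycan rule, 99 still passed the Aqp4 Tnnt2 limit and 195 passed neither. Of the 918 epiphycan cells, 594 (64.7%) passed their own rule after thinning. That 0 of them moved to the Aqp4 Tnnt2 group was fixed beforehand. They held fewer than 3 of its genes, and thinning only removes UMIs. The number of genes detected in a cell thus moved with the depth of the cell, and the part of depth in the differences between the groups below was not tested beyond this.

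Cells just inside and just outside the limits were set side by side. With 2 Aqp4 Tnnt2 genes (356 cells) the Epyc level was 4978 CPM and with 3 (253 cells, outside) 4949 CPM. With 2 of the 5 accompanying genes (244 cells) it was 2452 CPM, and in cells that held Epyc and 1 of the 5 (311 cells, outside) 1630.4 CPM, while the level of Coch, a gene of fibrocytes, was 273 and 979 CPM. Cells with 1 Epyc UMI (65 cells) held 14605 CPM of S100a1, against 5479.7 CPM in the 214 cells that met the rule but for Epyc and 27999.9 CPM in those with 10 or more Epyc UMIs. Only 13 cells held 2 of the HC genes, and 3 cells with exactly 3 of them lay just outside.

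The markers of epithelia were present in part. Of the 5 genes listed for epithelia, Epcam (469.8, 733, 1258 and 912 CPM), Cldn9 (466, 435, 547 and 549.5 CPM) and Cdh1 (77.0, 53.7, 69.4 and 38.2 CPM) were above 50 CPM on average, while Krt8 (17.1 CPM) and Krt18 (11.8 CPM) were low. Epcam, an adhesion molecule of epithelia, was found in 73.6% of the cells (mean of 4 libraries), Gjb2 in 79.4% and Gjb6 in 66.7%. In cells with 3 or more macrophage genes, whose median depth of 4158.5, 2488, 2918 and 2552 UMIs was of the same order, these shares were 2.84%, 1.55% and 1.08%. Of the 7 markers listed for supporting cells, all had UMIs, and Sox9 (257 ± 176 CPM, SD, n = 4), Sox10 (249 ± 27.1 CPM), Sox2 (124 ± 77.4 CPM) and Slc1a3 (318 ± 162 CPM) were above 50 CPM, whereas Fgfr3 (22.6 CPM), Lfng (32.3 CPM) and Prox1 (3.78 CPM) were below it. Epyc, which the rule used, stood at 4483 ± 719.6 CPM in epiphycan cells and at 4100.1 ± 801 CPM in Aqp4 Tnnt2 supporting cells, and the ranges of the libraries overlapped. The cells are described below as cells that meet the epiphycan rule, and whether they are a cell type of their own was not tested.

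Of the lists of other epithelial cells of the cochlea, the 3 interdental genes summed to 1564, 1766, 2229 and 2029 CPM in replicates 1, 3, 4 and 5, led by Ceacam16, and the 6 genes of root and outer sulcus cells to 1255, 860.2, 1059.6 and 954 CPM, led by Kcnj16 (617 CPM). The 7 supporting cell genes summed to 1721, 734, 723 and 849 CPM. Their mean sum of 1007 CPM stood beside 871 CPM in all other kept cochlear cells. It was 762 CPM in Aqp4 Tnnt2 supporting cells and 2098 CPM in other epithelial cells. Markers of cells outside the epithelium differed between libraries. All 6 macrophage genes together gave 15.4, 182, 3.39 and 10.1 CPM in replicates 1, 3, 4 and 5, with C1qa the highest at 20.5 CPM, and 10 of the 918 cells (9 in replicate 3, 1 in replicate 5) held 3 or more of them. The 4 fibrocyte genes gave 531, 915, 753 and 459 CPM, of which Car3 made up the largest part (304, 477, 633 and 236 CPM) and Coch 69.3, 267, 16.9 and 147 CPM. The 3 melanocyte genes gave 0, 81.7, 3.39 and 2.01 CPM and were highest in replicate 3. Of the HC genes, Myo6, which encodes a myosin of HCs and other cells, was at 236 ± 42.4 CPM, Kncn was at 0, and the other 4 summed to less than Myo6 by far, with Myo7a at 6.46 CPM and Pou4f3 at 1.58 CPM. The 2 haemoglobin genes differed most. Hbb-bs stood at 20611.5, 2389.5, 25.4 and 5775 CPM and Hba-a1 at 12709, 789, 8.46 and 1944 CPM in replicates 1, 3, 4 and 5. Replicate 1 was high and replicate 4 low, and the part of blood RNA in the values of replicate 1 was not tested.

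The vestibular libraries had no part in the choice of the rule, whereas the cochlear ones are those on which it was made, so the organs are set side by side as a description, with no test. In the vestibule, 4 of 10424 kept cells passed the same rule, all 4 in replicate 3. Replicates 1, 4 and 5 held 0 of 867, 0 of 2448 and 0 of 1671 kept cells, which allow shares of up to 0.346%, 0.123% and 0.180%. The share of cells that passed was 14.6% ± 3.16 in the cochlea and 0.0184% ± 0.0368 in the vestibule (SD, n = 4 each), a difference of 14.6 percentage points. The cochlear libraries did not overlap with the vestibular ones. Epyc over all kept cells stood at 1277, 1168, 1719 and 1593 CPM in the cochlear libraries and at 0.2998, 19.9, 0.678 and 0.152 CPM in the vestibular ones. Epyc and the other genes of the rule had been taken from cochlear cells, so the direction of both differences was built into the choice of genes. In the vestibule, 30 cells held 384 Epyc UMIs, and 377 of these UMIs were in 24 cells of replicate 3. None of those 24 barcodes occurred in a cochlear library. Vestibular replicate 3 held the most UMIs in all of the vestibular libraries (24104850), while the median depth of its kept cells was the lowest (2102 UMIs, against 2209.5 to 2584).

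**Figure D2:**
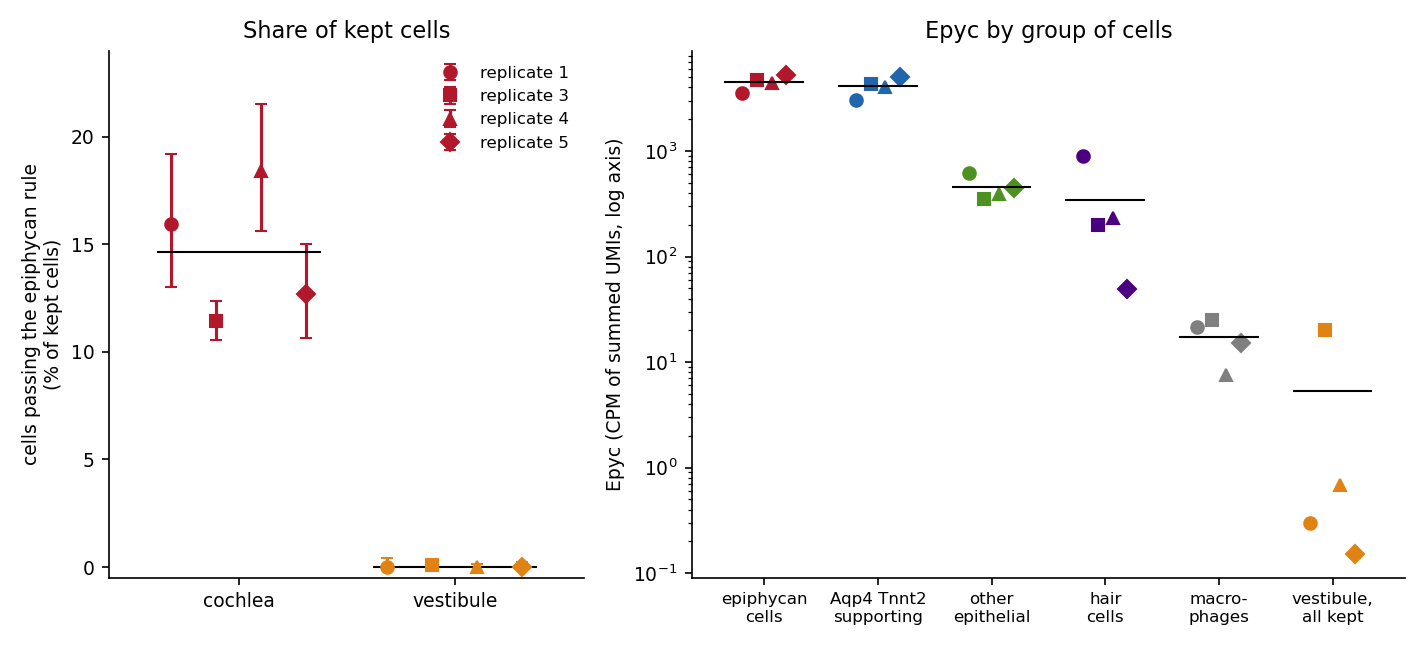
Left, percent of kept cells that passed the epiphycan rule in each library, with exact binomial 95% intervals that cover counting error only and the mean as a line. Right, Epyc level of each library on a log axis, in CPM of summed UMIs, in 5 groups of cochlear cells and in all kept vestibular cells. Epiphycan cells and Aqp4 Tnnt2 supporting cells overlap (means of 4483 and 4100 CPM), and the vestibular libraries lie below 20 CPM.

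The order of the Epyc level over the groups of cochlear cells followed the choice of the cells. Epyc stood at 3566, 4711, 4367 and 5288 CPM in the epiphycan cells of replicates 1, 3, 4 and 5 and at 3049, 4312, 4061 and 4978 CPM in the Aqp4 Tnnt2 supporting cells. It stood at 624, 354, 394 and 451 CPM in other epithelial cells (Epcam with Gjb2 or Gjb6, 705 cells), at 902, 200.0, 234 and 49.4 CPM in cells with 3 or more HC genes (206 cells) and at 21.7, 24.97, 7.56 and 15.3 CPM in macrophages (396 cells). The first pair overlapped, as did other epithelial cells and HCs, and macrophages were lowest in all 4 libraries. All 5 accompanying genes also overlapped between epiphycan and Aqp4 Tnnt2 supporting cells. Within libraries, Epyc, Qpct and Padi1 were higher in epiphycan cells in all 4, Prss36 and Tdrd12 in 2 and Nat8l in 1. The rule had used all of these genes. Prss36 was at 662, 706 and 139 CPM in epiphycan, Aqp4 Tnnt2 and other epithelial cells, Tdrd12 at 848, 903 and 105 CPM, Qpct at 352, 289 and 11.5 CPM, Nat8l at 441, 553 and 54.5 CPM, and Padi1 at 449, 337 and 42.4 CPM. In macrophages Qpct stood at a mean of 34.0 CPM, above its mean in other epithelial cells, and Padi1 was higher in HCs (97.1 CPM) than in other epithelial cells in all 4 libraries. Prss36 varied least between the libraries (678, 663, 667 and 642 CPM) and Qpct most (200.3, 452, 274 and 483 CPM). Macrophages held Epyc in 8.30% of cells, with a mean level of 17.4 CPM, which serves as the background for shares of cells.

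The most abundant transcripts of the cells, after mitochondrial and ribosomal protein genes were set aside, were led by Malat1, a nuclear long non-coding RNA, at 44665 ± 9333 CPM. S100a1, a calcium-binding protein, followed at 24470.4, 28569, 24059 and 21694.5 CPM, with all libraries near the mean. Skp1a (13804 ± 1596 CPM) and Fbxo2 (11687 ± 3236 CPM) encode 2 subunits of a ubiquitin ligase that are known as abundant proteins of the organ of Corti. S100a13 was at 7489 ± 756 CPM and lies next to S100a1 on the opposite strand (S100a1 chr3:90511034-90514392, S100a13 chr3:90514435-90524581). Lgals1, a galactoside-binding lectin, was at 6226 ± 1516 CPM, and Epyc itself was among the 20 most abundant genes. Gm42418, which overlaps AY036118 on the other strand, ranged from 3046 to 17635 CPM between libraries. Among genes at 50 CPM or more in every library and outside the rule, the ratio to the level in all other kept cochlear cells was highest for Mia (a secreted protein of cartilage and melanoma, 57.8, 207, 295 and 390.5 CPM, 5.38 times the other cells), Aox2 (an aldehyde oxidase, 4.78 times), Prss23 (a serine protease, 4.52 times) and the long non-coding RNA Gm48242 (4.36 times). These ratios describe the choice of the cells.

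Epiphycan cells were next set against the Aqp4 Tnnt2 supporting cells of the same libraries, the group whose Epyc level overlapped with theirs. Of 7120 genes tested, 202 (2.84%) were higher in epiphycan cells and 162 (2.28%) lower at an adjusted p under 0.05 (edgeR quasi-likelihood test with the library as a block, Benjamini-Hochberg). Both groups had been chosen by expression in these libraries, so the counts describe the groups and support nothing beyond them. The count of 364 fell to 120 without replicate 3 and to 179 without replicate 5, and it was 54 when the library was not used as a block. Ceacam16, which encodes a protein of the tectorial membrane, stood at 1398, 1647, 2104 and 1848 CPM in epiphycan cells and at 176, 468, 701 and 532 CPM in Aqp4 Tnnt2 supporting cells. All libraries of the first group lay above all of the second, 3.98-fold higher in the fit (1.99 ± 0.17 on the log2 scale, SE). Slc1a3, the glutamate transporter of glia and supporting cells, stood at 539, 243, 162 and 326 CPM against 17.9, 101, 77.3 and 108 CPM, again without overlap and highest in replicate 1 (1.73 ± 0.30). Gpx2, a glutathione peroxidase, stood at 1367, 935, 1073 and 1061 CPM against 261, 374, 643 and 389 CPM, without overlap (1.44 ± 0.19). Slc26a4, the anion exchanger pendrin, stood at 23.1, 65.1, 98.2 and 60.4 CPM against 12.8, 14.2, 24.1 and 2.61 CPM, with overlap between libraries although each library was higher in epiphycan cells (2.25 ± 0.24). The other genes named for the largest differences were Ttll3, a tubulin glycylase (2.00 ± 0.22), Rorb, a nuclear receptor (1.85 ± 0.23), Ebf1, a transcription factor (1.54 ± 0.24), Gsn, which severs actin (1.51 ± 0.17), Gas2, which links actin to microtubules (1.47 ± 0.19), and Tcap, a protein of the sarcomere (1.48 ± 0.33). Tcap was at 42.4, 121, 464 and 30.2 CPM, highest in replicate 4, and lost its call without replicate 4.

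In the other direction, Krt18, a keratin of simple epithelia, stood at 19.3, 7.13, 16.9 and 4.03 CPM in epiphycan cells and at 79.2, 86.8, 83.9 and 94.1 CPM in Aqp4 Tnnt2 supporting cells, 8.83-fold lower without overlap (-3.14 ± 0.27). Its partner Krt8 stood at 27.0, 7.60, 23.7 and 10.1 CPM against 164, 46.8, 43.7 and 48.3 CPM (-2.11 ± 0.25). Emx2, a homeobox transcription factor of the inner ear, stood at 57.8, 10.5, 22.0 and 6.04 CPM against 161, 76.2, 46.7 and 88.8 CPM, and the libraries of the groups overlapped (-2.25 ± 0.28). Lgals3, a galectin that is abundant in macrophages, stood at 34.7, 28.5, 13.5 and 20.1 CPM against 176, 214, 94.8 and 90.1 CPM (-2.67 ± 0.18). Gstm1 and Mgst1, glutathione transferases, and Gdpd1, a phosphodiesterase, were lower too. Gstm1 differed by -1.81 ± 0.21, Mgst1 by -1.67 ± 0.25 and Gdpd1 by -1.82 ± 0.21, and Mgst1 lost its call without replicate 3. Lockd (-2.09 ± 0.23) and Nckap5 (-1.97 ± 0.16) were also lower. Anxa1, an annexin and a marker of root cells, was at 0, 10.5, 0 and 24.2 CPM against 158, 14.9, 1.46 and 83.6 CPM, with overlap, and lost its call without replicate 1 and without replicate 5. Nupr1, a stress-induced chromatin protein from the list of other cochlear markers, stood at 339, 269, 262 and 213 CPM against 1017, 725, 717 and 875 CPM, without overlap (-1.60 ± 0.12). The neutrophil genes S100a8 (0, 5.31, 0 and 2519 CPM) and S100a9 (10.2, 4.96, 0 and 2923 CPM) were high in the Aqp4 Tnnt2 supporting cells of replicate 5 alone, against 19.3, 75.1, 0 and 0 CPM and 15.4, 91.7, 0 and 2.01 CPM in epiphycan cells, and their part in the differences was not tested.

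**Figure D3:**
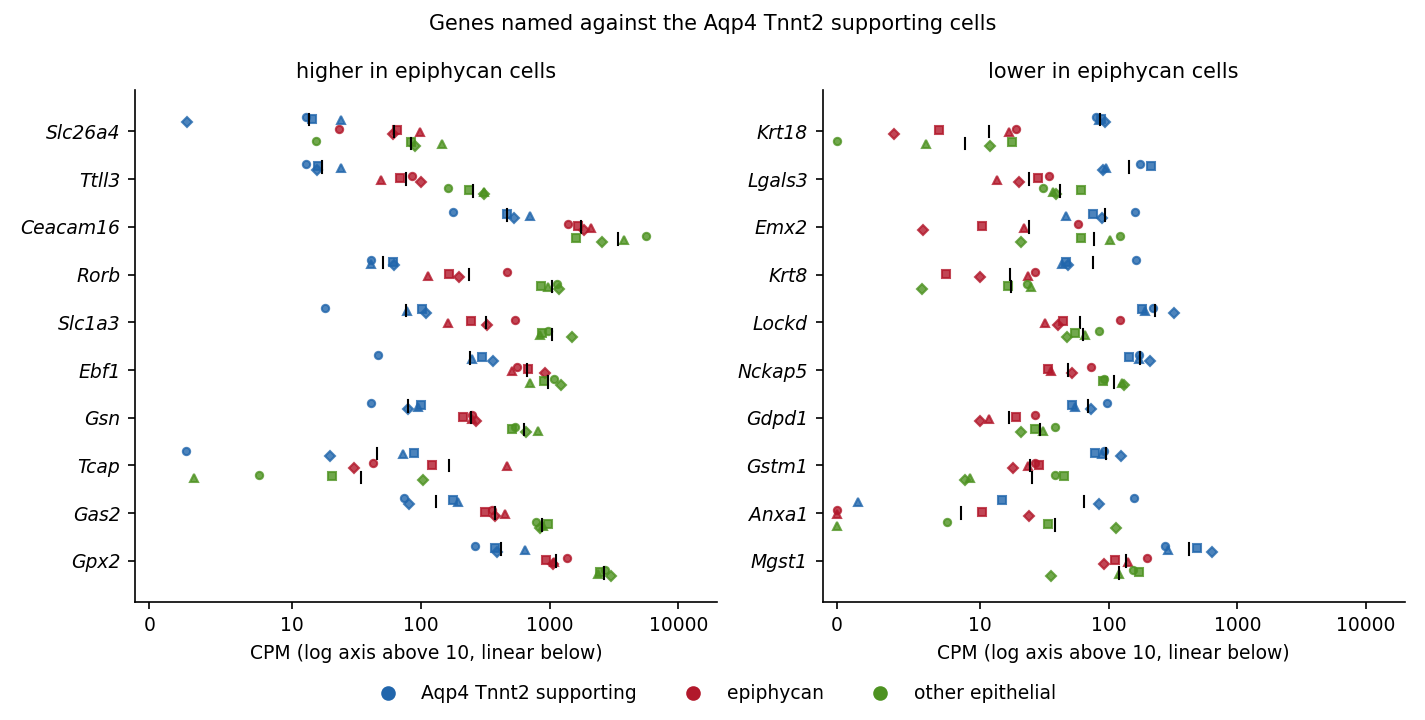
Level in CPM (log axis above 10, linear below) of the 10 genes with the largest difference in each direction between epiphycan cells (red) and Aqp4 Tnnt2 supporting cells (blue), with other epithelial cells (green) beside them. Rule genes were left out, and the genes had 1 direction in every library and at least 50 CPM in the higher group. Each point is 1 of 4 libraries and each black bar the mean. For Ceacam16 the means were 1749 (red), 469 (blue) and 3371 CPM (green).

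The same genes differed in steps among cells that met the positive part of the rule. With 0, 1, 2, 3 and 4 or more of the 6 Aqp4 Tnnt2 genes, the level of Ceacam16 was 2489.5, 1884, 1451, 920.2 and 262 CPM, that of Gpx2 1382, 1186, 977, 713 and 250.4 CPM, that of Slc1a3 414, 393, 229.7, 133 and 47.4 CPM and that of Slc26a4 152, 61.6, 36.4, 21.2 and 7.64 CPM (means of 4 libraries). These 4 had been named because they were higher in epiphycan cells, which hold 0 to 2 of the genes, so the ends of their order restate that difference. Nupr1 was lowest with 0 or 1 and highest with 4 or more, with 219, 211, 333, 592 and 969 CPM. It had been reported above as lower in epiphycan cells, so the ends of its order restate that difference too. Epyc had no such order, with 3756, 4082, 4978, 4949 and 3837 CPM, highest at 2 and 3. The median depth of the cells rose along the same classes, from 1738.5 UMIs with none to 2536, 3825.5, 5868 and 10234 UMIs, and the part of depth in these steps was not tested. The classes held 224, 338, 356, 253 and 271 cells, the first 3 of which make up the epiphycan cells. Markers of other cells also lay highest in the first class, Coch with 339.9, 143, 43.8, 176 and 24.6 CPM and Dcn with 264, 57.0, 35.6, 36.6 and 40.9 CPM, and Vmo1, a gene of Reissner's membrane, with 785, 5.31, 10.2, 38.4 and 2.28 CPM. In the first class Vmo1 was at 28.9, 316, 2784 and 12.9 CPM in replicates 1, 3, 4 and 5, and the part of other cells in these values was not tested.

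**Figure D4:**
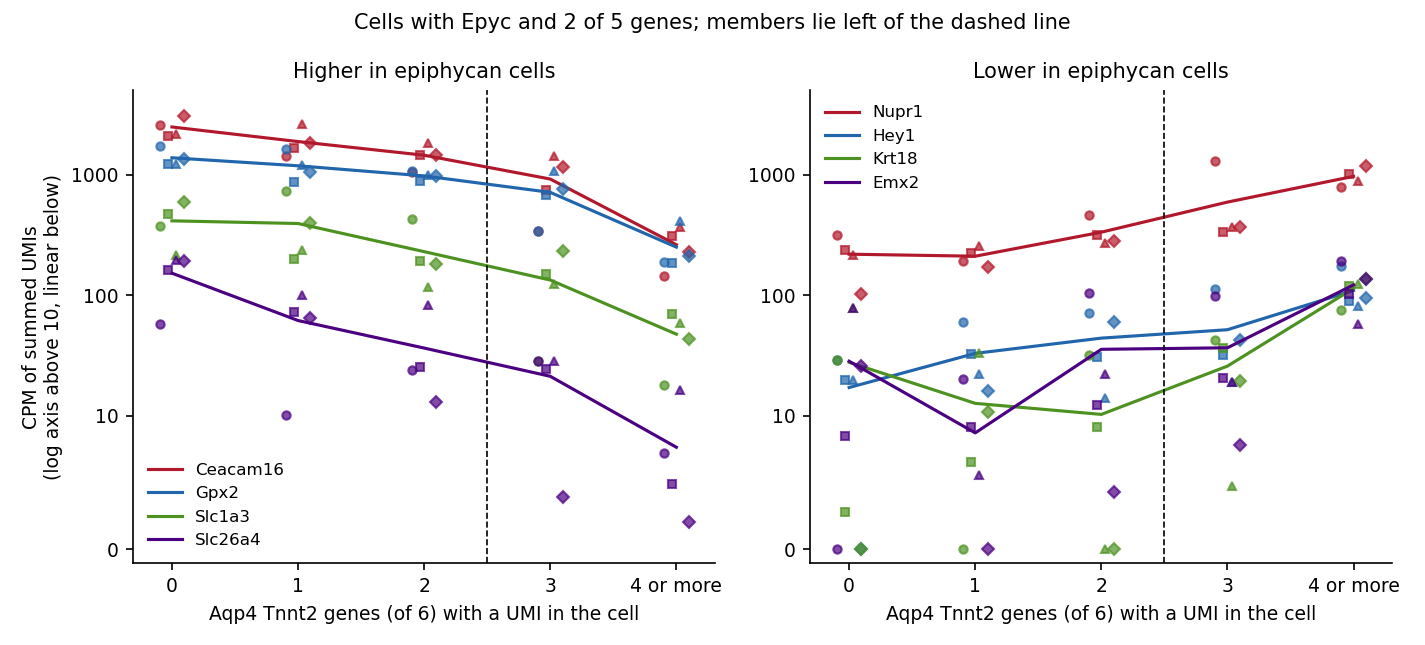
Level in CPM (log axis above 10, linear below) of 8 genes in cells with Epyc and at least 2 of the 5 accompanying genes, by the number of Aqp4 Tnnt2 genes with a UMI in the cell. Lines join the means of 4 libraries, points are the libraries, and epiphycan cells lie left of the dashed line. Ceacam16 went from 2489.5 to 262 CPM and Nupr1 from 219 to 969 CPM.

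Against the other epithelial cells, which had been defined by Epcam and a connexin, by not passing the rule and by fewer than 3 HC, Aqp4 Tnnt2 or macrophage genes each, 513 of 5495 genes tested (9.34%) were higher in epiphycan cells and 523 (9.52%) lower in the same kind of fit. The count of 1036 fell to 523 without replicate 3 and was 434 without the library as a block. As before, the calls describe groups that expression had chosen. Lgals1 stood at 4317, 8026, 6225 and 6336 CPM in epiphycan cells and at 639, 424, 226 and 176 CPM in other epithelial cells, 20.04-fold higher and without overlap (4.32 ± 0.26). In Aqp4 Tnnt2 supporting cells it stood at 2647, 8319.8, 7110.0 and 8103 CPM. Car3, a carbonic anhydrase, stood at 304, 477, 633 and 236 CPM against 30.8, 59.0, 21.7 and 2.98 CPM (3.69 ± 0.25) and at 66.4, 396, 528 and 289 CPM in Aqp4 Tnnt2 supporting cells. Clic6, a chloride intracellular channel protein, stood at 84.7, 85.5, 110.0 and 64.4 CPM against 0, 3.17, 3.10 and 0 CPM, where the low counts leave the size of the difference uncertain. Frzb, a secreted inhibitor of Wnt signalling, stood at 185, 106, 102 and 101 CPM against 38.5, 13.3, 21.7 and 8.95 CPM (2.87 ± 0.23). Aldh1a1, an enzyme that makes retinoic acid, stood at 73.2, 71.8, 89.7 and 40.3 CPM against 15.4, 10.2, 9.31 and 5.97 CPM (2.90 ± 0.25). The remaining genes named in this direction were Lpl, lipoprotein lipase (3.54 ± 0.30), Hamp2, of the hepcidin family (3.53 ± 0.30), Rprm, an inhibitor of the cell cycle (3.19 ± 0.29), and the non-coding RNAs Snhg11 (3.67 ± 0.31) and Gm48242 (3.74 ± 0.22). In Aqp4 Tnnt2 supporting cells the means were 83.8 CPM for Clic6, 111 for Frzb, 94.4 for Aldh1a1 and 70.8 for Hamp2. Those of Rprm, Snhg11 and Gm48242 were 72.6, 311 and 151 CPM there. None of these genes passed the threshold between epiphycan and Aqp4 Tnnt2 supporting cells. Lpl, at 41.2 CPM in Aqp4 Tnnt2 supporting cells, did pass upward (0.88 ± 0.23).

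Genes that were lower than in the other epithelial cells were led by Rbp7, a retinoid-binding protein, at 27.0, 21.4, 1.69 and 14.1 CPM against 331, 317, 676 and 176 CPM, 20.1-fold lower and without overlap (-4.33 ± 0.32). Plbd1, a phospholipase B domain protein, stood at 135, 20.4, 3.39 and 2.01 CPM against 716, 234, 416 and 167 CPM, with replicate 1 the highest of the epiphycan cells (-3.61 ± 0.32). Tesc, a calcium-binding protein, stood at 23.1, 32.3, 5.08 and 14.1 CPM against 185, 161, 236 and 74.6 CPM (-2.77 ± 0.28). Acbd7, which binds acyl-CoA, differed by -3.01 ± 0.27, Gm13889 by -3.74 ± 0.36 and 6330411D24Rik by -3.07 ± 0.18, all without overlap. Vmo1 (19.3, 63.2, 240.3 and 2.01 CPM against 469.8, 1124, 276 and 80.6 CPM) and Crhbp, which binds corticotropin-releasing hormone (0, 47.0, 86.3 and 4.03 CPM against 7.70, 540.3, 269.9 and 5.97 CPM), overlapped between libraries. Slc1a3 and Ceacam16, which were higher than in Aqp4 Tnnt2 supporting cells, were lower than in other epithelial cells, where they stood at 970.4, 872, 841 and 1492 CPM and 5584, 1606, 3757 and 2539.7 CPM. The difference was -1.75 ± 0.18 for Slc1a3 without overlap, and -0.71 ± 0.20 for Ceacam16 with overlap and with the call lost without replicate 4. Gpx2 was at 2711, 2463, 2389 and 2999 CPM in other epithelial cells (-1.18 ± 0.12, without overlap).

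**Figure D5:**
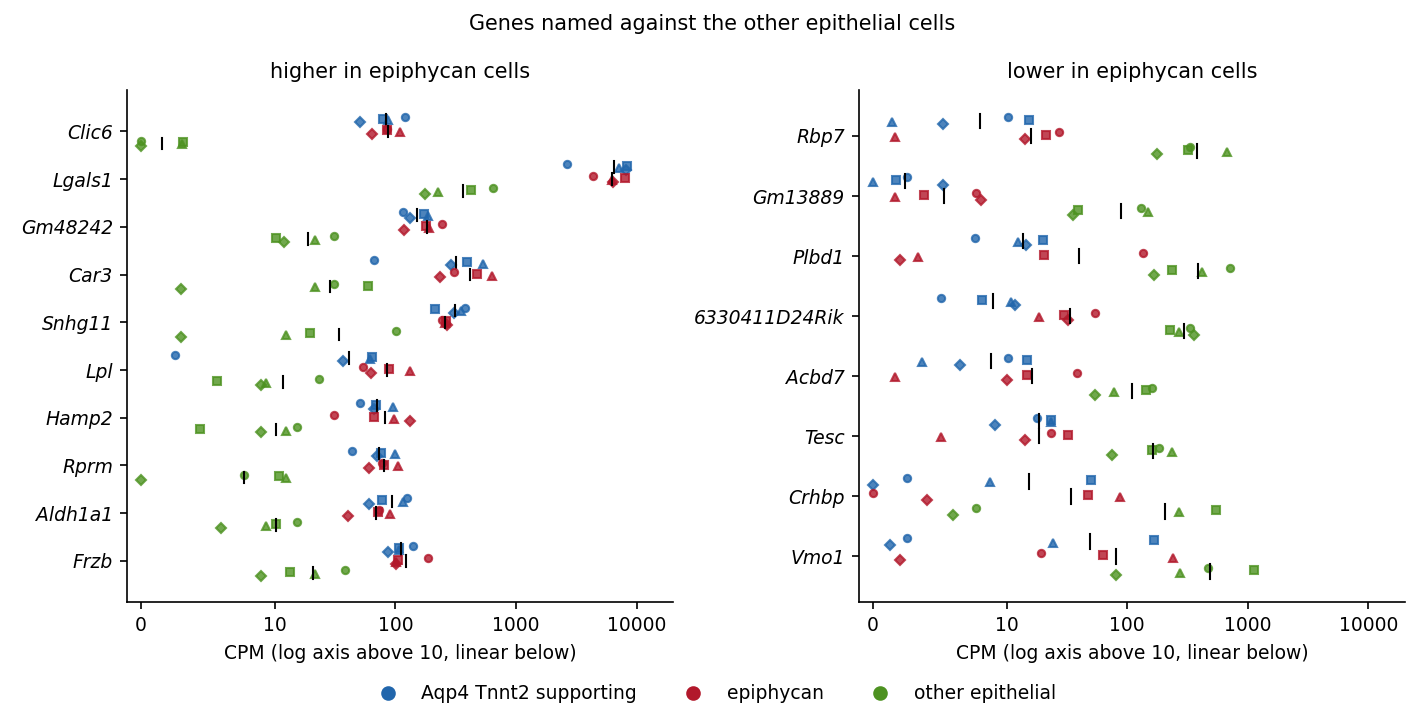
Level in CPM (log axis above 10, linear below) of 10 genes that were higher and 8 that were lower in epiphycan cells (red) than in other epithelial cells (green), with Aqp4 Tnnt2 supporting cells (blue) beside them. Each point is 1 of 4 libraries and each black bar the mean. The red points of Lgals1 lie from 4317 to 8026 CPM, the green ones from 176 to 639 CPM.

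Among the genes of the extracellular matrix, 11 of the 14 small leucine-rich proteoglycans had UMIs in the cells. Epyc was followed by Lum, lumican of the same family, at 412, 436, 452 and 344 CPM, with all libraries close together. Lum was at 468, 581, 364 and 507 CPM in Aqp4 Tnnt2 supporting cells and at 84.7, 108, 177 and 65.7 CPM in other epithelial cells (2.01 ± 0.16 against the latter, without overlap). Dcn, decorin, was at 34.7, 119, 45.7 and 101 CPM and is abundant in connective tissue. It stood at 469.7 CPM in all other kept cells. The others of the family, among them Ogn, Bgn, Prelp and Fmod, were at means of at most 11.5 CPM, and Optc, Aspn and Podn were at 0. Epyc left aside, 2 members were tested against each group. Of these, 1 passed the threshold upward against Aqp4 Tnnt2 supporting cells (Dcn, whose call was lost without replicate 3 and without replicate 5) and 1 against other epithelial cells (Lum), where 2.84% and 9.34% of all genes did so.

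Of the 14 genes of the tectorial membrane and apical matrix, 8 were tested against Aqp4 Tnnt2 supporting cells and 3 passed upward (Ceacam16, Col11a1, Col11a2), with a list median of 0.601 on the log2 scale beside 0.00550 over all genes tested, of which 2.84% passed upward and 2.28% downward. The call for Col11a1 was lost without replicate 3, and that for Col11a2 whichever replicate was left out. Against other epithelial cells 9 were tested, 1 passed upward (Col11a1) and 4 downward (Tectb, Otog, Otogl, Ceacam16), with a median of 0.189 beside 0.00796 over all genes, of which 9.34% passed upward and 9.52% downward. Col11a1, a fibrillar collagen chain, stood at 69.3, 119.8, 178 and 117 CPM in epiphycan cells, 46.0, 73.0, 111 and 50.9 CPM in Aqp4 Tnnt2 supporting cells and 23.1, 14.6, 49.6 and 14.9 CPM in other epithelial cells. Otoa, otoancorin, which anchors the tectorial membrane, stood at 3.85, 53.7, 54.2 and 74.5 CPM, low in replicate 1. Tectb, beta-tectorin, stood at 223, 19.01, 0 and 8.05 CPM, highest in replicate 1, and its call was lost without replicate 3. Tecta was nearly absent, with 1 UMI in all 918 cells.

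Of the connexins, Gjb2 and Gjb6 were by far the most abundant. Gjb2 stood at 863, 819.8, 990.2 and 912 CPM in epiphycan cells and Gjb6 at 620.0, 541, 535 and 543 CPM, and neither passed the threshold against Aqp4 Tnnt2 supporting cells, where the difference for Gjb2 was 0.15 ± 0.10. The other epithelial cells had been chosen to hold Gjb2 or Gjb6, so their levels (means of 816 and 648 CPM) are given with no test. Of 23 genes of potassium and chloride transport, 12 were tested against each group. Against Aqp4 Tnnt2 supporting cells 1 passed upward (Slc12a7, a potassium chloride cotransporter, with the call lost without replicate 3 and without replicate 5) and 0 downward, and against other epithelial cells 2 passed upward (Kcnk1, Atp1b1) and 4 downward (Kcnj10, Slc12a7, Atp1b2, Atp1b3). Over all genes, 2.84% passed upward and 2.28% downward in the first fit, and 9.34% and 9.52% in the second. The call for Kcnk1 was lost without replicates 1, 3 or 5 in turn. Atp1b1, a beta subunit of the sodium pump, stood at 828, 762, 926 and 976 CPM against 462, 452, 378 and 325 CPM in other epithelial cells, and Atp1b3 at 100.1, 74.6, 72.8 and 98.6 CPM against 216, 226, 179.9 and 176 CPM, both without overlap. Of the acid-base genes, Slc26a4, Car12 and Car14 passed upward against Aqp4 Tnnt2 supporting cells (3 of 9 tested), and of 8 tested against other epithelial cells Car3 and Car13 passed upward and Car2, Car14 and Ednrb downward. The call for Car12 was lost without replicate 1 and without replicate 5, and that for Car14 without replicate 3. Car14, a membrane carbonic anhydrase, stood at 212, 124, 105 and 159 CPM, 28.1, 53.8, 76.6 and 69.2 CPM and 670.1, 432, 521 and 654 CPM in epiphycan, Aqp4 Tnnt2 and other epithelial cells. Aqp11, an intracellular aquaporin, was lower than in Aqp4 Tnnt2 supporting cells (100.1, 101, 84.6 and 115 CPM against 245, 247, 204 and 283 CPM, -1.28 ± 0.11, without overlap) and higher than in other epithelial cells (108, 68.6, 55.8 and 62.7 CPM, 0.62 ± 0.17, with overlap and higher in 3 of 4 libraries).

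In the Notch pathway, which patterns HCs and supporting cells, 11 genes were tested against Aqp4 Tnnt2 supporting cells. Lfng, which modifies Notch receptors, passed upward, and the transcriptional repressors Hey1 and Hey2 passed downward. Hey2 stood at 53.9, 18.5, 33.9 and 16.1 CPM against 120.1, 76.2, 66.4 and 86.2 CPM and Hey1 at 61.6, 29.5, 16.9 and 34.2 CPM against 143, 63.4, 59.8 and 75.8 CPM. Against other epithelial cells, Hey1 passed upward and the ligand Jag1 (135, 27.1, 20.3 and 40.3 CPM against 285, 71.1, 77.5 and 110.4 CPM), Lfng and the target Hes1 downward, of 8 tested. Of 25 otic transcription factors, 18 were tested against Aqp4 Tnnt2 supporting cells, with 1 upward (Tbx2) and 3 downward (Gata2, Nr2f2, Emx2), and 17 against other epithelial cells, with 5 upward (Gata2, Gata3, Eya1, Id3, Nr2f1) and 5 downward (Sox2, Id1, Id4, Tbx2, Emx2). The shares over all genes were 2.84% upward and 2.28% downward against the first group and 9.34% and 9.52% against the second. The calls for Gata2 and Nr2f2 against Aqp4 Tnnt2 supporting cells were lost without replicate 3 and without replicate 5, and that for Nr2f2 also without replicate 4. Against other epithelial cells, those for Eya1 and Nr2f1 were lost without replicate 3. Gata2 stood at 116, 83.6, 129 and 80.5 CPM in epiphycan cells, 225, 114, 180.1 and 138 CPM in Aqp4 Tnnt2 supporting cells and 23.1, 11.4, 21.7 and 11.9 CPM in other epithelial cells. Tbx2 stood at 92.4, 44.7, 81.2 and 68.4 CPM, 17.9, 26.6, 37.2 and 11.8 CPM and 169, 129.5, 133 and 188 CPM in the same order and did not overlap between the groups.

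Ligands, receptors and inhibitors of growth factor signalling were given by 36 genes, of which 34 had UMIs in the cells. Against Aqp4 Tnnt2 supporting cells 3 of 22 passed upward (Wnt5a, Igfbp2, Igfbp5) and 1 downward (Lgr5). Against other epithelial cells 7 of 20 passed upward (Fgfr1, Bmp4, Bmp6, Bmp7, Tgfb2, Frzb, Wnt5a) and 6 downward (Fgfr3, Fgf10, Lgr6, Sfrp1, Egfr, Igfbp2). Beside these stand 2.84% upward and 2.28% downward of all genes in the first fit, and 9.34% and 9.52% in the second. Bmp4, a ligand made by the outer sulcus, stood at 193, 197, 291 and 149 CPM in epiphycan cells, 345, 194, 280.0 and 155 CPM in Aqp4 Tnnt2 supporting cells and 116, 60.9, 139.6 and 23.9 CPM in other epithelial cells (1.56 ± 0.19 against the last, without overlap). Wnt5a, a ligand of the planar polarity pathway, stood at 73.2, 70.3, 93.1 and 74.5 CPM against 53.7, 56.3, 46.7 and 43.1 CPM and 53.9, 52.1, 40.3 and 32.8 CPM in the same order. The call for Wnt5a was lost without replicates 3, 4 or 5 in turn against Aqp4 Tnnt2 supporting cells and without replicate 4 against other epithelial cells. The call for Igfbp5 was lost without replicates 1, 3 or 5 in turn, that for Tgfb2 whichever replicate was left out, and that for Bmp6 without replicate 3.

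Relatives of the accompanying genes of the rule were looked at by family. Of 5 peptidylarginine deiminases, Padi2 stood at 146, 117, 217 and 113 CPM beside Padi1 at 369.7, 526, 460.4 and 441 CPM, Padi4 at a mean of 5.74 CPM and Padi3 at 0.661 CPM, and Padi6 was at 0. Padi2 was higher than in Aqp4 Tnnt2 supporting cells (0.69 ± 0.13) and than in other epithelial cells (1.24 ± 0.19). Of 18 genes of the piRNA pathway and Tudor family, 10 had UMIs, Tdrd12 stood at 793, 921, 921 and 757 CPM and Tdrd7 at 100.1, 86.0, 96.5 and 96.6 CPM, and Piwil1, Piwil2, Piwil4, Mael and Ddx4 were at 0. A count of 0 in the 3451480 UMIs of the cells allows up to 0.869 CPM over the 4 libraries together. Of the genes that make or break down N-acetylaspartate, Nat8l stood at 585, 397, 460.4 and 322 CPM, Rimklb, which joins it to glutamate, at 108, 64.6, 79.6 and 88.6 CPM, and Aspa, which cleaves it, at 0.594 CPM. Got1, an aspartate aminotransferase, stood at 11.6, 41.8, 11.8 and 30.2 CPM against 15.3, 16.6, 12.4 and 11.8 CPM in Aqp4 Tnnt2 supporting cells. It was higher in replicates 3 and 5 and lower in replicates 1 and 4, and its call in the fit was lost without replicate 5. Of 21 serine proteases and inhibitors other than Prss36, 13 were tested against Aqp4 Tnnt2 supporting cells and 1 passed upward (Prss23, 0.89 ± 0.19), and 9 against other epithelial cells, where 3 passed upward (Prss8, Prss23, Spint1), none downward in either fit. These counts stand beside upward shares over all genes of 2.84% and 9.34%.

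Of 23 keratin, tubulin and S100 genes, 15 were tested against Aqp4 Tnnt2 supporting cells, with 1 upward (S100a10) and 4 downward (Krt8, Krt18, Tubb2b, S100a11), and 12 against other epithelial cells, with 2 upward (Krt19, S100a1) and 3 downward (Vim, Tuba1a, S100a6). Vim, vimentin, stood at 92.4, 61.3, 66.0 and 54.3 CPM, 23.0, 47.1, 44.5 and 37.9 CPM and 269.6, 218, 335 and 248 CPM in epiphycan, Aqp4 Tnnt2 and other epithelial cells. Among 21 antioxidant genes, 18 were tested against each group, with 1 upward (Gpx2) and 2 downward (Gpx4, Gstm1) against the first, and 3 upward (Gpx1, Prdx2, Prdx5) and 3 downward (Gpx2, Gpx3, Mt1) against the second. Both lists stand beside 2.84% upward and 2.28% downward of all genes against Aqp4 Tnnt2 supporting cells and 9.34% and 9.52% against other epithelial cells. Of the antigen presentation and interferon genes, Ifit1 was lower than in Aqp4 Tnnt2 supporting cells, and B2m, Cd74, Bst2 and Ifi27 were higher than in other epithelial cells. Bst2, an interferon-induced membrane protein, stood at 239, 329.8, 164 and 227 CPM against 77.0, 82.5, 55.8 and 137 CPM, and Ifi27 at 277, 577, 523 and 413 CPM against 139, 267, 152 and 152 CPM, both without overlap. Macrophages, with few Epcam transcripts, held 314 CPM of Bst2 and 132 CPM of Ifi27. Cells with 3 or more macrophage genes had been kept out of the other epithelial cells but not out of the epiphycan cells, where they were 10 of 918. The part of macrophage RNA in these differences was not tested. Of the immediate early and heat shock genes, Fos, Jun and Egr1 were lower than in Aqp4 Tnnt2 supporting cells (3 of 13 tested, 0 upward). Over all genes of that fit, 2.28% were lower and 2.84% higher. Each of the 3 lost its call without replicate 3, Jun and Egr1 also without replicate 5 and Fos without replicate 4. Against other epithelial cells, 11 genes of this list were tested and 0 passed in either direction. Jun stood at 69.3, 92.2, 511 and 105 CPM, highest in replicate 4. Of the calls given by list, the direction held in 3 of the 4 libraries for Dcn, Fos and Igfbp2 against Aqp4 Tnnt2 supporting cells and for Bmp6, Car2, Car13, Ceacam16, Gpx3, Igfbp2, Mt1, Prdx5 and Tectb against other epithelial cells.

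Replicate 1 stood apart from the other libraries in several genes of epiphycan cells. Slc1a3 was at 539 CPM there, against 162 to 326 CPM in the others, Sox9 at 519.9 against 157 to 195 CPM, Gata3 at 1876 against 624 to 853 CPM, and Nr2f1 at 1899 against 878 to 1017 CPM. The 7 supporting cell markers summed to 1721, 734, 723 and 849 CPM in replicates 1, 3, 4 and 5. In the Aqp4 Tnnt2 supporting cells of replicate 1, Gata3 was at 1973 CPM, against 829.9 to 930.1 CPM in the others, whereas Slc1a3 was lowest in replicate 1 there (17.9, 101, 77.3 and 108 CPM in replicates 1, 3, 4 and 5). The header of replicate 1 names another version of the counting software than those of replicates 3, 4 and 5, and the effect of the software and that of the sample cannot be told apart. Without replicate 1 the fit against Aqp4 Tnnt2 supporting cells called 432 of 8620 genes tested, beside 364 of 7120 with all libraries. The fit against other epithelial cells called 1211 of 6513, beside 1036 of 5495.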

How the data were processed

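The authors sequenced 3′ droplet libraries (v3.1 chemistry), aligned the reads to mm10 and deposited raw UMI counts per gene and barcode as made by Cell Ranger, named as 6.1.2 in the submitters' processing notes and as 5.0.1 or 6.1.2 in the file headers. Seurat is also named there. The deposited counts were used without correction for free RNA and without a doublet caller. A barcode was kept if it held 200 genes or more and 1000 UMIs or more, of which under 25% were mitochondrial. Of 32285 features, UMIs were summed per library and group of cells, and CPM were computed from the sums. Sums were compared with edgeR 4.0.16 (quasi-likelihood test, TMM factors, filterByExpr, library as a block, Benjamini-Hochberg threshold of 0.05) in R 4.3.3, with DESeq2 1.42.0 as an alternative. The SE of a log2 difference was derived from the edgeR test, as the size of the difference divided by the square root of its F statistic. A two-sided exact permutation test of the organs over libraries (scipy 1.17.1, Python 3.11.15) had been planned and was run, but its p is not given, since the cochlear values had chosen the cells. Binomial intervals are exact at 95%, a count of 0 allows up to 3 counts, and both cover counting error only.

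The library is the sample and the groups of cells come from the same libraries, so the pairing comes from the design. Deviations of groups from the same library correlated at 0.350 to 0.426 against Aqp4 Tnnt2 supporting cells and at 0.247 to 0.489 against other epithelial cells. The labels call the libraries biological replicates of pooled mice. Genes were named if they were on 1 of 42 lists, among the 10 with the largest log2 difference in each direction past the threshold (same direction in every library, at least 50 CPM in the higher group), among the 20 most abundant, or among the 20 with the largest ratio to the other kept cells. Genes of the rule were left out of the largest differences. Of the 10 lower than in other epithelial cells, 8 are reported here. The members and lists were chosen with earlier results of these data known. The fits were tested on simulated data in which 200 genes carried a known log2 difference of 2. In the comparison with Aqp4 Tnnt2 supporting cells 99.5% of 191 tested changed genes were called (4.52% of calls were on unchanged genes). In that with other epithelial cells 100% of 189 were called (2.58%). The simulated libraries shared 1 profile and 1 fixed dispersion, with no differences between libraries, and genes with few expected counts were not changed. These shares therefore check that the fits run as intended and do not give the rates of missed or false calls in the real libraries. A fit across genes between the organs was not made, since only 1 vestibular library held any such cell. Some listed genes are not reported here. Positions are from GENCODE M21 (GRCm38) and promoter sequences from RefSeq (GRCm38).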

Additional observations from a re-analysis of the deposited data

Results flagged for a closer look

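In the vestibule, replicate 3 held 0.0736% of kept cells that passed the epiphycan rule, and the other 3 libraries held none. Its Epyc level over all kept cells was 19.95 CPM, against 0.152 to 0.678 CPM in the others. Both values lay far from those of the other libraries by Dixon's criterion for 4 values. The same criterion was applied to the genes named in the text whose level was not the same in all 4 libraries of the epiphycan cells (162 of 172 genes). With the library-level measures, 169 groups of 4 libraries were examined and 26 lay beyond the limit, where chance gives about 1 in 20. For Aspa, Fmod, Tecta and the vestibular share, only 1 library held a value above 0, so the limit was passed whatever that value was. The rate of 1 in 20 does not apply to these. Cochlear replicate 3, which held the values of those genes, had the largest summed depth of epiphycan cells (2104207 UMIs). Replicate 1 was highest of the 4 libraries in the following. Fgfr3 stood at 73.2 CPM, against 5.08 to 6.18 CPM in the others. Frzb stood at 185 CPM, against 101 to 106 CPM in the others. Gjb6 stood at 620.0 CPM, against 535 to 543 CPM in the others. Hba-a1 stood at 12709 CPM, against 8.46 to 1944 CPM in the others. Igfbp5 stood at 3092 CPM, against 1115 to 1354 CPM in the others. Kcnj10 stood at 266 CPM, against 101 to 122 CPM in the others. Lfng stood at 57.8 CPM, against 22.0 to 26.2 CPM in the others. Lgr5 stood at 15.4 CPM, against 6.04 to 7.60 CPM in the others. Lockd stood at 123 CPM, against 32.2 to 44.2 CPM in the others. Nr2f1 stood at 1899 CPM, against 878 to 1017 CPM in the others. Plbd1 stood at 135 CPM, against 2.01 to 20.4 CPM in the others. Sox2 stood at 239 CPM, against 70.8 to 94.8 CPM in the others. Sox9 stood at 519.9 CPM, against 157 to 195 CPM in the others. Tectb stood at 223 CPM, against 0 to 19.01 CPM in the others. Replicate 1 was lowest of the 4 libraries in the following. Prdx5 stood at 185 CPM, against 398 to 401 CPM in the others. S100a10 stood at 297 CPM, against 398 to 413 CPM in the others. Replicate 3 was highest of the 4 libraries in the following. Aspa stood at 2.38 CPM, against 0 in the others. C1qa stood at 78.4 CPM, against 0 to 2.01 CPM in the others. Fmod stood at 1.90 CPM, against 0 in the others. Ogn stood at 30.9 CPM, against 3.39 to 8.05 CPM in the others. S100a9 stood at 91.7 CPM, against 0 to 15.4 CPM in the others. Tecta stood at 0.475 CPM, against 0 in the others. Replicate 4 was highest of the 4 libraries in the following. Jun stood at 511 CPM, against 69.3 to 105 CPM in the others. Replicate 5 was lowest of the 4 libraries in the following. Id1 stood at 183 CPM, against 252 to 259 CPM in the others.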

How the results depend on the processing

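The number of epiphycan cells was 1442 without the limit on Aqp4 Tnnt2 genes and 579 among cells with at least 2000 UMIs, and between 338 (without replicate 3) and 827 when 1 replicate was left out. The direction of the difference in share between the organs was fixed by the choice of the genes. With libraries of the same number taken as pairs, a pairing of the organs that the labels do not give, the difference was 14.6 percentage points. With 1 library left out the difference ran from 13.3 to 15.7 points. The test planned for it is not given, since the rule used these cochlear values. Against Aqp4 Tnnt2 supporting cells, the 364 genes past the threshold became 54 with no replicate block, 175 with DESeq2, 635 with no filter on low counts and 120 to 432 with 1 replicate left out. Against other epithelial cells, 1036 became 434 with no replicate block, 531 with DESeq2, 1418 with no filter on low counts and 523 to 1211 with 1 replicate left out. Of the 72 named or listed genes past the threshold in the first fit, 4, 31, 9 and 26 missed it without replicates 1, 3, 4 and 5 and 51 with no replicate block. Of 123 in the second, 4, 29, 14 and 9 did so, and 48 with no replicate block. With DESeq2, 25 of the 72 and 26 of the 123 missed it. The cause was not tested. Among these genes, none changed sign in the settings in which it could be fitted. The summed depth was lowest in replicate 1 (259661 UMIs in 91 cells), and its part in the values of low genes was not tested.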
